A study of Mus musculus with 6 samples.

Results

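The tendon and cartilage lineage genes described here are the transcription factor genes Scx, Mkx, Sox9 and Runx2 and the genes Tnmd, Acan, Comp, Chad and Cilp, which encode a membrane glycoprotein and matrix proteins of tendon and cartilage. They are 9 of the 22911 genes with a symbol and a probe on the arrays. Every probe of a gene was taken where its accession mapped to the gene's symbol, which gave 13 probes. No measured level entered that choice. The probes read first for each gene are A_51_P380432 (Scx), A_51_P519008 (Mkx), A_55_P2798454 (Sox9), A_65_P18181 (Runx2), A_51_P108183 (Tnmd), A_51_P409010 (Comp), A_51_P241319 (Cilp), A_55_P2733757 (Acan) and A_51_P480073 (Chad).

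Total RNA of tail tissue fibroblasts, cells grown out of minced mouse tails on collagen I-coated dishes, was measured on 6 Agilent 1-colour arrays in 3 groups of 2. All cells, the control cells included, came from C57BL/6 mice with the LH2F/F allele, a conditional allele of lysyl hydroxylase 2 (LH2, encoded by Plod2), and a CAG-Cre transgene, in which the CAG promoter, active in most cell types, drives the recombinase. Control cells were kept in tamoxifen (-) medium. Cells of LH2 cKO_no.1 had tamoxifen for 24 h and tamoxifen (+) medium, and those of LH2 cKO_no.2 had tamoxifen for 24 h and tamoxifen (-) medium. No group had tamoxifen with a gene that could not be deleted, so effects of tamoxifen itself and of the deletion cannot be told apart here. Whether a group's 2 arrays stem from separate cultures or animals is not in the labels, so the p-values measure the spread between these arrays alone, which may be technical.

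Tendon cells and chondrocytes arise from related connective tissue progenitors. Scleraxis (Scx) and Mohawk (Mkx) are transcription factors of tendon, and tenomodulin (Tnmd) is a membrane glycoprotein of mature tendon cells that is known as a target of scleraxis. Sox9 is the master regulator of chondrocytes and Runx2 that of osteoblasts and of hypertrophic cartilage, while aggrecan (Acan), cartilage oligomeric matrix protein (Comp), chondroadherin (Chad) and cartilage intermediate layer protein (Cilp) are secreted into the matrix of cartilage and in part of tendon. The mouse tail holds long tendons and vertebral cartilage beside its dermis.

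Promoter windows are shown for Tnmd, Cilp and Runx2, since Tnmd and Cilp gave the steadiest falls and Runx2 is a regulator whose probe rose. The windows are those of RefSeq on GRCm38.p6, the 250 bases before the start that the table gives, which held 5 of the 9 genes (Tnmd, Cilp, Runx2, Acan and Chad). The coordinates are chrX:133850758-133851007 on the plus strand for Tnmd, chr9:65264930-65265179 on the plus strand for Cilp and chr17:44814628-44814877 on the minus strand for Runx2. Each is written 5′ to 3′, and capitals mark matches to an E-box (CANNTG, the kind of site that scleraxis binds), a Runx core (TGTGGT) or a Sox core (ACAAAG), on either strand.
Tnmd: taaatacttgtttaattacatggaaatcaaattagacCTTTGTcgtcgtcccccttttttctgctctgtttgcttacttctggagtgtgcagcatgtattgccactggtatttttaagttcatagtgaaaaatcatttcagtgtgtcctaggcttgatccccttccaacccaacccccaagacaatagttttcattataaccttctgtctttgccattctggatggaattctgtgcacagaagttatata
Cilp: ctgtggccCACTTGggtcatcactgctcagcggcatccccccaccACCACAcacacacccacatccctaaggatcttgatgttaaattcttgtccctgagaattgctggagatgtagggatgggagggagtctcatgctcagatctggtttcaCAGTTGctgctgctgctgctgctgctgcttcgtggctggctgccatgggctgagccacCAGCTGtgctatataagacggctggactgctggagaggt
Runx2: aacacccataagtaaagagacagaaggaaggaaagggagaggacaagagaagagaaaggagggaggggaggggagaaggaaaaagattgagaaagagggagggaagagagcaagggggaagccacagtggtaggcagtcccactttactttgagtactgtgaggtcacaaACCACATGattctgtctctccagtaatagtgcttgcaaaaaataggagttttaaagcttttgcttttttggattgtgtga

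The Tnmd window had 1 match to the Sox core, 213 bases before the start, and 0 to the E-box or the Runx core. The Cilp window had 3 E-boxes, at 242, 97 and 39 bases before the start, and 1 Runx core at 205. In the Runx2 window an E-box at 78 bases overlapped a Runx core at 80. Of 32851 windows of the same length, 66.2% held an E-box, 14.0% a Runx core and 16.5% a Sox core. The exact TATA box letters TATAAA, searched on both strands, stood in 12.4% of all windows and in none of the 3 printed ones. Variants of these letters were not searched, and the Cilp window holds tatataag shortly after its last E-box. GC content was 38.4% for Tnmd, 56.0% for Cilp and 44.8% for Runx2, with a median of 52.4% over all windows. The matches describe letters in these windows and not binding.

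The arrays differed in brightness. Values called processed signals are Agilent's background-subtracted intensities, and their 75th percentile over 56605 probes was 33.7 to 34.2 for control, 85.1 to 95.9 for no.1 and 55.1 to 56.9 for no.2. Between 44.2% and 45.7%, 53.4% and 53.5%, and 48.4% and 48.6% of probes were well above background in the same order. Levels were therefore compared on a scaled log2 level, the log2 signal after subtracting the log2 of that array's 75th percentile. Control had the lowest 75th percentile, so scaling lowers a dim reading of no.1 or no.2 relative to control. The measured log2 fold changes and the bounds of Tnmd, Comp and Cilp against control include that lowering. All arrays lay on 1 slide, with control in row 1 and the others in row 2, so slide row goes with group against control and the 2 cannot be told apart. By the file names, both control arrays are at 0 h. In each tamoxifen group replicate 1 is at 24 h and replicate 2 at 48 h, where the labels have 24 h. The hour by file name thus also goes with group against control, and their effects cannot be told apart. Within no.1 and no.2 the spread between the arrays, and so each SD, SE and p-value, also holds any difference between these hours. Plod2, the targeted gene, read 42.1 and 34.9 on the arrays of control, 31.8 and 17.1 on those of no.1 and 13.3 and 8.59 on those of no.2. Its scaled level fell in no.1 (log2 fold change -2.13, limma adjusted p = 0.00613) and no.2 (-2.57, limma adjusted p = 0.00768). With spike-in scaling the no.1 value was -0.20 and did not pass (adjusted p = 0.575). The place of its probe relative to the deleted part is not stated in the labels or headers, so it is no check of the deletion. Fibroblast markers were detected as labelled, 10 or 11 of 12 per array, with Lum below background on all 6.

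Of the 9 genes, 7 could be tested, meaning that the probe was well above background on each array of 1 or more groups. The test was limma's moderated fit over all 6 arrays with Benjamini-Hochberg adjustment over 23060 genes, and a gene was called at an adjusted p under 0.05. In no.1, 1 gene rose (Mkx) and 4 fell (Sox9, Tnmd, Comp and Cilp), beside 47.8% of all genes called there. In no.2, 3 rose (Scx, Mkx and Runx2) and the same 4 fell, beside 28.3% of all genes called. Among all genes, 21.4% were called higher and 26.4% lower in no.1, and 12.1% and 16.2% in no.2. The 2 comparisons share the control arrays, so the 5 genes called alike in both are not a repeated result. The control and tamoxifen-treated arrays did not overlap for any of the 7 genes in either comparison, which also held for 81.5% of all genes in no.1 and 74.5% in no.2. Median log2 fold changes over the 7 genes were -2.04 in no.1 and -1.82 in no.2, and over all genes -0.12 and -0.10. Tnmd, Comp and Cilp could be tested through their control readings alone, and Mkx through its readings after tamoxifen alone. The direction of these genes is thus tied to the filter, and the counts and medians are descriptions and not a test.

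**Figure D1:**
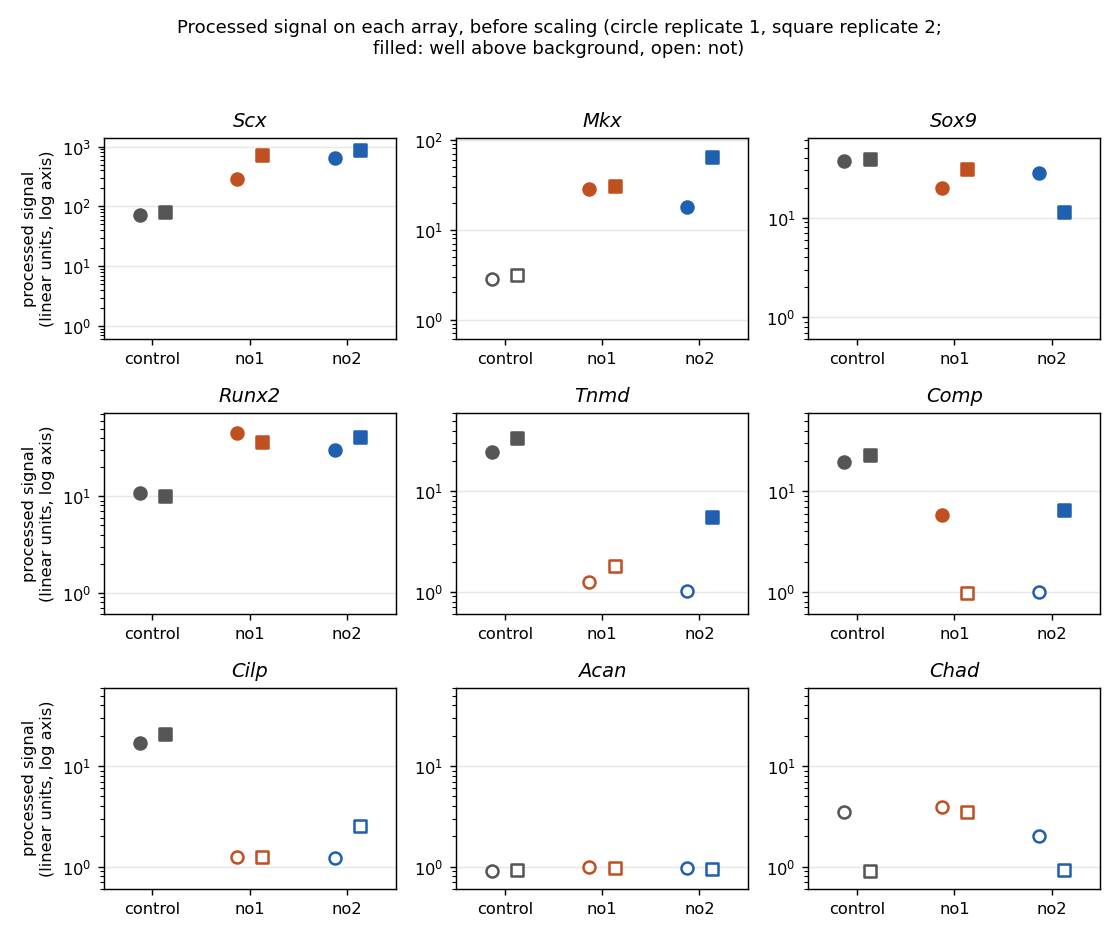
Processed signal of each probe shown, in arbitrary units on a log axis, on the 6 arrays by group, before scaling. Circles are replicate 1 and squares replicate 2, filled where the probe was well above background. Scx, Sox9 and Runx2 are filled on all 6 arrays, whereas Tnmd, Comp and Cilp are filled on both control arrays and on few or none of the others.

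Scx, the tendon transcription factor, was higher after tamoxifen, and past the threshold in no.2. Its processed signal was 71.2 and 80.3 for control, 292 and 713 for no.1 and 639 and 861 for no.2, well above background throughout. All 4 tamoxifen-treated arrays lay above both control arrays, and the first no.1 array stood lowest among them. The scaled log2 level averaged 1.16 ± 0.14 for control, 2.34 ± 1.03 for no.1 and 3.73 ± 0.27 for no.2 (SD, n = 2 each). Scx rose 5.95-fold in no.2 (log2 fold change 2.57, SE 0.47, limma adjusted p = 0.0157). In no.1 the ratio was 2.27-fold (1.18, SE 0.47, limma adjusted p = 0.0831), which did not pass. The no.2 call was lost without control replicate 1 (2.48, adjusted p = 0.0602), control replicate 2 (2.67, adjusted p = 0.0562) or no.2 replicate 2 (2.38, adjusted p = 0.0801), and in no.1 the value passed without no.1 replicate 1 (1.91, adjusted p = 0.0213) and was 0.45 (adjusted p = 0.234) without no.1 replicate 2.

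Mkx, the other tendon transcription factor, was detected after tamoxifen and not in control. Its brighter probe read 2.81 and 3.09 on the arrays of control, not well above background, 28.3 and 30.5 on those of no.1 and 17.8 and 65.0 on those of no.2. The control arrays lay below all others, and the no.2 arrays stood 3.54-fold apart. For a probe below background in 1 group the fold is a bound, computed with the lowest signal called well above background in place of any dimmer reading. That signal is the lowest over all probes of the array, and some probes were not called at brighter readings. Each bound is thus relative to that signal and not to a detection limit of the probe itself. Mkx was at least 2.43-fold higher in no.1 (limma adjusted p = 0.0344) and at least 4.54-fold higher in no.2 (limma adjusted p = 0.0191). The scaled log2 level was -1.62 ± 0.20 for no.1 and -0.72 ± 1.29 for no.2 (SD, n = 2 each), and the log2 fold changes against the dim control readings were 1.90 and 2.81 (SE 0.56). The second Mkx probe was dim, reading 2.94 and 1.04 for control, 4.52 and 5.16 for no.1 and 2.26 and 12.8 for no.2, and only no.2 replicate 2 was well above background.

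Both Mkx calls were lost without either control array, with adjusted p of 0.101 and 0.0867 in no.1 (log2 fold changes 1.83 and 1.98) and 0.0670 and 0.0649 in no.2 (2.73 and 2.88). The no.1 call was also lost without no.1 replicate 1 (2.04, adjusted p = 0.115) or replicate 2 (1.76, adjusted p = 0.137). The no.2 value was 3.72 (adjusted p = 0.00918) without no.2 replicate 1 and 1.89 (adjusted p = 0.0246) without replicate 2. With the normexp background correction and its offset of 50, a constant above every reading of this probe but 1, the log2 fold changes were -0.19 for no.1 (adjusted p = 0.449) and 0.31 for no.2 (adjusted p = 0.276).

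Runx2, the osteoblast and hypertrophic cartilage factor, had 3 probes. The brightest is annotated to a non-coding RefSeq transcript of the gene, and the others to a protein-coding one. The brightest read 10.6 and 10.1 on the arrays of control, 45.3 and 36.7 on those of no.1 and 30.0 and 40.5 on those of no.2, well above background on all arrays. Before scaling, all tamoxifen-treated arrays lay above control. The scaled log2 level averaged -1.71 ± 0.03 for control, -1.15 ± 0.09 for no.1 and -0.68 ± 0.28 for no.2 (SD, n = 2 each). By this probe, Runx2 rose 2.03-fold in no.2 (log2 fold change 1.02, SE 0.22, limma adjusted p = 0.0216). In no.1 it stood 1.47-fold above control without passing (0.56, SE 0.22, limma adjusted p = 0.0745).

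The other Runx2 probes differed from the brightest. The second read 6.62 and 2.65 on the arrays of control, 16.2 and 16.4 on those of no.1 and 11.0 and 9.74 on those of no.2, and its scaled log2 differences from control were 0.55 (SE 0.42, limma adjusted p = 0.317 over all probes) and 0.58 (adjusted p = 0.325). The third was below background on all 6 arrays, between 0.98 and 3.49. Averaged over the 3 probes, the Runx2 log2 fold change was -0.0051 for no.1 (adjusted p = 0.990) and 0.089 for no.2 (adjusted p = 0.838). With normexp correction it was -0.13 (adjusted p = 0.167) and 0.12 (adjusted p = 0.250). The no.2 call was lost without control replicate 1 (1.05, adjusted p = 0.104), control replicate 2 (1.00, adjusted p = 0.121) or no.2 replicate 2 (0.83, adjusted p = 0.0566), and the no.1 value passed without either no.2 array (0.56, adjusted p = 0.0373).

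Sox9, the chondrocyte factor, was the regulator that fell. Its brighter probe read 37.4 and 39.2 on the arrays of control, 20.0 and 30.9 on those of no.1 and 28.0 and 11.5 on those of no.2, well above background on all arrays. The control arrays were the highest even before scaling, and the lowest was no.2 replicate 2. The scaled log2 level averaged 0.18 ± 0.06 for control, -1.86 ± 0.57 for no.1 and -1.64 ± 0.94 for no.2 (SD, n = 2 each). Sox9 fell 4.11-fold in no.1 (log2 fold change -2.04, SE 0.48, limma adjusted p = 0.0173) and 3.52-fold in no.2 (-1.82, SE 0.48, limma adjusted p = 0.0383), in 4 of 4 pairs of arrays each.

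The second Sox9 probe gave the same direction on this scale, but not relative to the spike-ins in no.1 (0.30, SE 0.32, limma adjusted p = 0.399, and -0.23, adjusted p = 0.531, in no.2). Each probe was also tested on its own, where 6 of the 9 tested probes of these genes were called in no.1 (46.6% of all probes) and 8 in no.2 (26.7%). It read 11.6 and 11.3 on the arrays of control, 8.06 and 12.0 on those of no.1 and 7.31 and 5.97 on those of no.2, and before scaling no.1 replicate 2 lay above control. After scaling it fell by 1.63 in no.1 on the log2 scale (SE 0.30, limma adjusted p = 0.00808 over all probes) and by 1.51 in no.2 (SE 0.30, adjusted p = 0.0182). The calls of the brighter probe were lost without control replicate 1 (-2.08, adjusted p = 0.0546 in no.1 and -1.86, adjusted p = 0.109 in no.2) or control replicate 2 (-2.0, adjusted p = 0.0627 and -1.77, adjusted p = 0.125). The no.1 call was lost without no.1 replicate 1 (-1.64, adjusted p = 0.101), and the no.2 call without either no.1 array (-1.82, adjusted p = 0.0556) or no.2 replicate 2 (-1.15, adjusted p = 0.113). Without no.2 replicate 1 the no.2 value was -2.48 (adjusted p = 0.0230).

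Tnmd, the tenomodulin gene and known scleraxis target, fell while Scx was higher. Its probe read 24.7 and 33.7 on the arrays of control, 1.25 and 1.79 on those of no.1 and 1.02 and 5.49 on those of no.2. Both control arrays were well above background, neither no.1 array was, and of the no.2 arrays replicate 2 was. Tnmd was at least 15.9-fold lower in no.1 (log2 fold change -5.68 on the measured readings, SE 0.75, limma adjusted p = 0.00388). In no.2, where 1 of 2 arrays measured it, the log2 fold change was -4.33 (SE 0.75, limma adjusted p = 0.0136), or at least 9.5-fold lower with the dim reading raised to the lowest signal well above background, with -3.14 (adjusted p = 0.0173) without no.2 replicate 1 and -5.52 (adjusted p = 0.0124) without replicate 2. The no.2 call was lost without control replicate 2 (-4.10, adjusted p = 0.0545), and the no.1 call held in all 18 alternative settings. In bulk RNA, fewer cells of a type and less RNA per cell cannot be told apart, which applies to every level given here.

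Cilp, a large glycoprotein of the cartilage interterritorial matrix, gave the call of lowest p. It read 16.9 and 20.6 on the arrays of control, 1.24 and 1.23 on those of no.1 and 1.21 and 2.52 on those of no.2, and was well above background in control alone. Its scaled log2 level was -0.86 ± 0.22 in control (SD, n = 2). Cilp was at least 10.3-fold lower in no.1 (limma adjusted p = 0.000842) and at least 6.69-fold lower in no.2 (limma adjusted p = 0.00263). On the measured readings the log2 fold changes were -5.33 and -4.14 (SE 0.36), and both calls held in all 18 alternatives. The sizes did not: with normexp correction the values were -1.03 and -0.68. That correction also gave -1.33 and -0.92 for Tnmd, -1.13 and -0.73 for Comp and -0.92 and -0.62 for Sox9 (no.1 and no.2), all still called. The bounds given here hold for the 75th-percentile scale without that correction.

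Comp, a thrombospondin-family protein that binds collagens in cartilage and tendon, fell with a wide spread. It read 19.6 and 22.8 on the arrays of control, 5.84 and 0.97 on those of no.1 and 0.99 and 6.51 on those of no.2. Of the tamoxifen-treated arrays, no.1 replicate 1 and no.2 replicate 2 were well above background and the other 2 were not. The arrays of no.1 stood 5.36-fold and those of no.2 6.38-fold apart, in opposite order of replicate number. The scaled log2 level averaged -0.68 ± 0.17 for control, -5.25 ± 1.71 for no.1 and -4.46 ± 1.89 for no.2 (SD, n = 2 each). The log2 fold change was -4.57 in no.1 (SE 1.05, limma adjusted p = 0.0162) and -3.78 in no.2 (SE 1.05, limma adjusted p = 0.0435). With the dim reading of each group raised to the lowest signal well above background, Comp was at least 10.7-fold lower in no.1 and at least 6.41-fold lower in no.2.

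The sizes for Comp rested on which array was read. Without no.1 replicate 1 the no.1 value was -5.78 (adjusted p = 0.0335), and without replicate 2 it was -3.36 and did not pass (adjusted p = 0.0756), nor did it without control replicate 2 (-4.45, adjusted p = 0.0528). The no.2 call was lost without no.2 replicate 1 (-2.45, adjusted p = 0.147), no.2 replicate 2 (-5.12, adjusted p = 0.0521), control replicate 1 (-3.90, adjusted p = 0.106) or control replicate 2 (-3.66, adjusted p = 0.126).

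Acan, the large proteoglycan of cartilage, and Chad, a leucine-rich matrix protein of chondrocytes, were not well above background on any array. Acan read 0.91 and 0.92 on the arrays of control, 0.99 and 0.97 on those of no.1 and 0.97 and 0.94 on those of no.2. Chad read 3.48 and 0.91, 3.89 and 3.46, and 2.00 and 0.92 in the same order. The lowest signals called well above background lay between 4.50 and 4.92, so no fold is read for either gene. After scaling, the nearly flat Acan readings stood at -1.31 in no.1 and -0.66 in no.2 against control on the log2 scale.

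**Figure D2:**
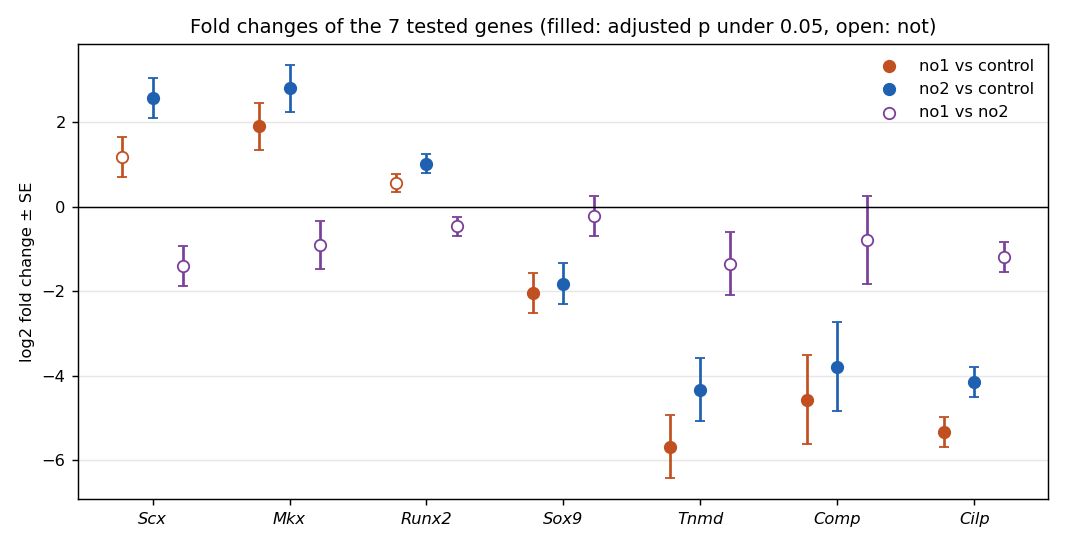
Log2 fold change of the 7 tested genes in the 3 comparisons, with bars of 1 standard error of the moderated fit and filled points at a limma adjusted p under 0.05. Scx, Mkx and Runx2 lie above 0 and Sox9, Tnmd, Comp and Cilp below 0 against control. No point of no.1 against no.2 is filled, and those of Tnmd, Comp and Cilp rest on readings at or near background in both groups.

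The series is built on the comparison of no.1 with no.2, tamoxifen-containing against tamoxifen-free medium after the same treatment. None of the 7 genes passed, and limma called 0 of 23060 genes in all, where 3825 had an unadjusted p under 0.05. The regulators were well above background on all 4 arrays. Their log2 differences were -1.39 for Scx (SE 0.47, limma adjusted p = 0.282), -0.90 for Mkx (SE 0.56, adjusted p = 0.421), -0.46 for Runx2 (SE 0.22, adjusted p = 0.328) and -0.22 for Sox9 (SE 0.48, adjusted p = 0.827). The arrays of both groups did not overlap for 3 of the 7 genes (Scx, Runx2 and Cilp), beside 47.9% of all genes. Scx and Cilp had an unadjusted p under 0.05 in that fit. Tnmd (-1.35, SE 0.75, adjusted p = 0.382), Comp (-0.79, SE 1.05, adjusted p = 0.711) and Cilp (-1.19, SE 0.36, adjusted p = 0.282) were tested because of their control readings. In no.1 and no.2 they lay at or near background, where scaling to the higher 75th percentile of no.1 lowers a dim reading, so nothing is read from these 3 differences. The no.1 values of Scx and Runx2 against control that missed the threshold, beside no.2 values that passed, are thus not shown to differ from them.

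These differences moved with single arrays. Scx stood at -0.66 (adjusted p = 0.752) without no.1 replicate 1 and -2.12 (adjusted p = 0.0665) when replicate 2 was left out instead. Sox9 moved to 0.18 without no.1 replicate 1, or 0.44 if no.2 replicate 1 was left out. Mkx stood at 0.0097 without no.2 replicate 2. Relative to the spike-ins, Sox9 was 0.42 and Runx2 0.18. No call was made for these genes under any of these settings.

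Spread within the groups was small in control and larger after tamoxifen, whereas the fit used 1 spread per gene shared by all groups. The robust SD of the difference between the 2 arrays over all probes was 0.154 for control, 0.418 for no.1 and 0.386 for no.2 on the log2 scale. Among members that both no.2 arrays measured, Scx (1.30-fold), Mkx (3.54-fold) and Runx2 (1.31-fold) were higher on the second array, at 48 h by its file name, and Sox9 was 2.51-fold lower after scaling. Over all genes tested, the second no.2 array was the higher in 42.7%. In no.1 the second array was higher for Scx (2.76-fold), Mkx (1.21-fold) and Sox9 (1.75-fold) and lower for Runx2 (1.09-fold), and over all genes tested it was the higher in 48.0%. With 1 array at each hour in no.1 and in no.2, and both control arrays at 0 h, time was not tested.

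**Figure D3:**
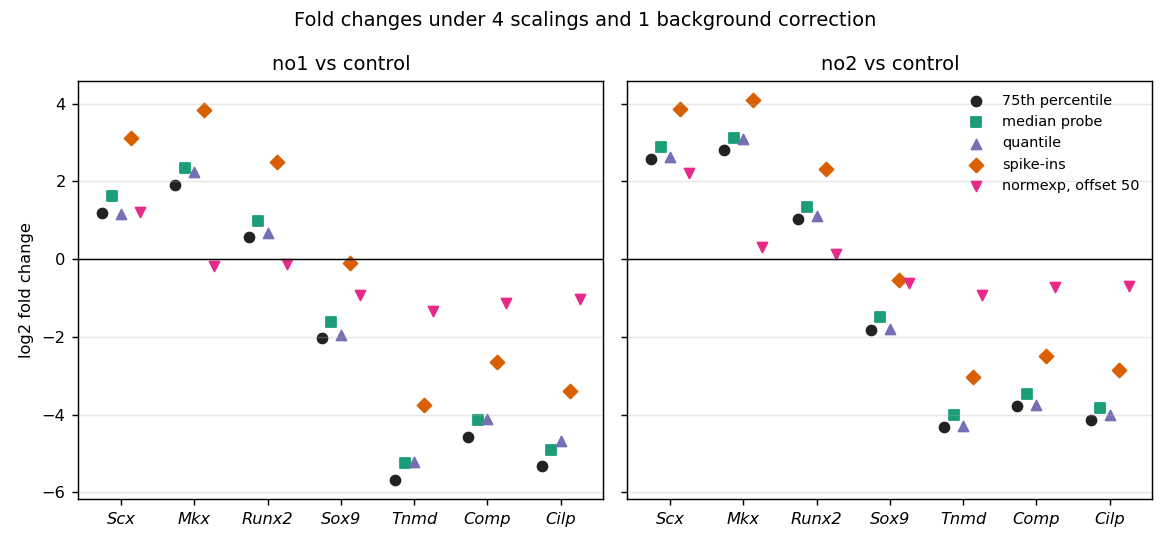
Log2 fold change against control of the 7 genes under 5 treatments of the arrays, namely scaling to the 75th percentile, to the median probe, by quantiles and to spike-in controls, and normexp background correction. The spike-in values lie above those of the other scalings, and the normexp values of Mkx, Runx2, Tnmd, Comp and Cilp lie nearest to 0.

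The choice of scale moved all genes together. Relative to the spike-in RNAs added to each sample, the median over all genes was 1.81 in no.1 and 1.18 in no.2. All genes called split into 4940 higher and 6081 lower in no.1 and 2790 and 3728 in no.2 with the 75th percentile. The split was 7564 and 3296 and 4840 and 2176 with the median probe, and 18910 and 426 and 14981 and 535 with the spike-ins. Relative to the spike-ins, Sox9 stood at -0.11 for no.1 (adjusted p = 0.790) and -0.53 for no.2 (adjusted p = 0.234), and Comp was -2.64 (adjusted p = 0.0628) and -2.50 (adjusted p = 0.0867), so their calls were lost there. Tnmd (-3.75 and -3.04) and Cilp (-3.40 and -2.85) were called lower on that scale too, as were Scx (3.11 and 3.86), Mkx (3.83 and 4.09) and Runx2 (2.49 and 2.31) called higher. With the median probe as reference, Scx (1.61, adjusted p = 0.0168) and Runx2 (0.99, adjusted p = 0.0182) passed in no.1 as well.

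Markers of the lineages were mostly below background. Of 10 chondrocyte markers, 2 or 3 were well above background per array, and Col9a1, Col9a3, Matn1, Matn3, Hapln1, Cnmd and Ucma were below it on all 6. Col2a1, the main collagen of cartilage, was well above background on all 6, reading 120 and 126 for control, 91.0 and 171 for no.1 and 157 and 514 for no.2, and made up most of the list's sum. The summed signal of the 10, in units of the array's 75th percentile, ran from 4.19 to 4.27 for control, 1.35 to 2.43 for no.1 and 3.37 to 9.53 for no.2. Of 8 osteoblast and osteocyte markers, 0 were detected in control, 1 or 2 in no.1 and 2 or 3 in no.2. Of all probes, 44.2% to 45.7%, 53.4% to 53.5% and 48.4% to 48.6% were above background in the same order. The part of array brightness in the marker counts was not tested. Sp7, Ibsp, Dmp1, Ifitm5 and Sost were below background throughout, and the summed signal of the 8 was 0.409 to 0.472, 0.202 to 0.371 and 0.434 to 0.604. The fibroblast sum ran from 5036 to 5337 for control, 2219 to 2268 for no.1 and 2439 to 2814 for no.2. S100a4 was its largest part on every array, with processed signals of 121521 and 127952 for control, 104373 and 94813 for no.1 and 79667 and 53882 for no.2. Of 10 tested fibroblast markers, 1 was called higher and 5 lower in no.1, and 1 higher and 4 lower in no.2. The part of cell composition in the changes of the 7 genes was not tested.

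Among 6 other cell types, keratinocyte markers numbered 2 or 3 of 9 above background, endothelial 1 or 2 of 8, leukocyte 4 of 8, skeletal muscle 2 of 9, adipocyte 4 or 5 of 8 and Schwann 1 or 2 of 8 on every array. Krt5, Krt14, Cdh5, Ptprc, Myod1, Adipoq and Sox10 were below background on all 6, whereas Krt10, Trp63, Itgam, Csf1r, Cd68, Acta1, Tnnt3, Pparg, Fabp4, Lpl and Mbp were well above it on all 6. Among the latter, processed signals ran from 325 to 814 for Trp63, 1165 to 2446 for Itgam, 84.9 to 343 for Csf1r and 515 to 2047 for Acta1. Smooth muscle and pericyte markers, many of which fibroblasts also express, numbered 6 or 7 of 8. Their summed signal ran from 625 to 645 for control, 512 to 898 for no.1 and 624 to 634 for no.2, and that of leukocyte markers from 46.5 to 49.6, 28.3 to 32.0 and 29.2 to 36.3.

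Genes of like pattern were taken as the 3 with the smallest root mean square distance of centred log2 profiles over the 6 arrays, among 11408 or 11409 genes well above background on all arrays. Near to Scx were Gxylt2 (0.195) and Vav3 (0.281), and nearest to Mkx were Sertad4 (0.333), Nid2 (0.342) and Cxcl12 (0.346). For Sox9 they were Usp2 (0.158), Aldh3b3 (0.162) and Gchfr (0.165), and for Runx2 Ptprf (0.054), Pmvk (0.056) and Olfml2b (0.072). Cemip was near both Tnmd (0.430) and Comp (0.885), with Camp (0.469) and Ackr3 (0.481) for Tnmd and Pcsk6 (0.717) and Zfp783 (0.911) for Comp. For Cilp they were Trf (0.260), Adam33 (0.262) and Inhbb (0.297). The distances describe 6 arrays in 3 groups and carry no test.

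**Figure D4:**
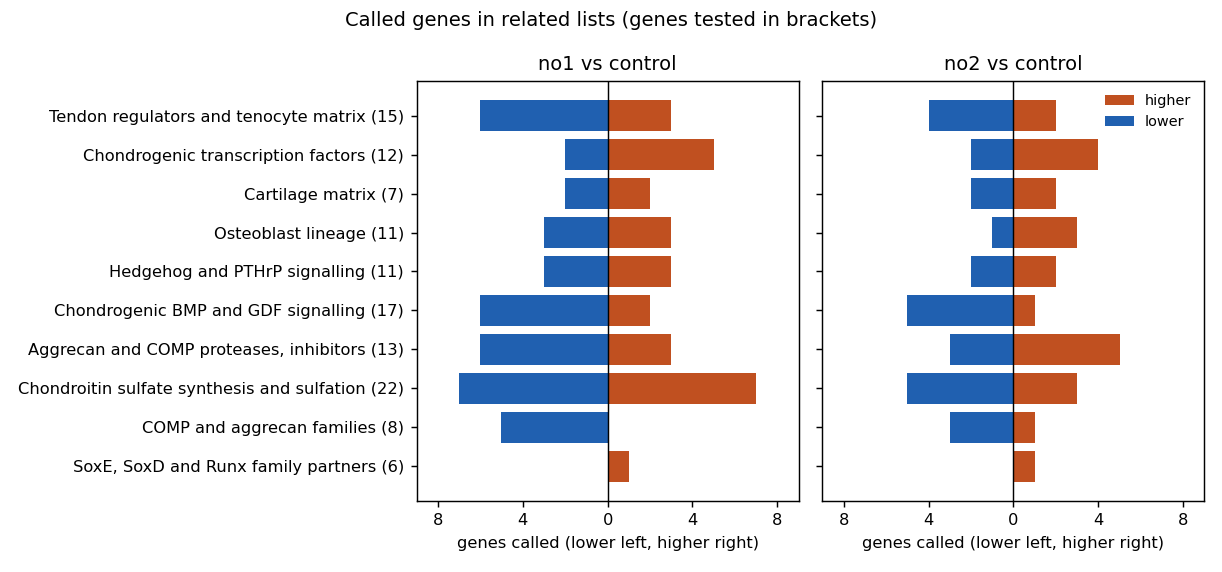
Number of genes called higher and lower at a limma adjusted p under 0.05 in each of 10 related gene lists, for no.1 and no.2 against control, with the number tested beside each list. Relatives of Comp and aggrecan hold no higher call in no.1, and SoxE, SoxD and Runx partners hold no lower call in either group.

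In 10 lists of related genes, 115 of 165 distinct genes were tested. Between 16.7% and 69.2% of a list's tested genes were called in no.1 and between 16.7% and 61.5% in no.2, beside 47.8% and 28.3% of all genes. Of 15 tested tendon regulators and tenocyte matrix genes, 3 rose and 6 fell in no.1 and 2 rose and 4 fell in no.2, with median log2 fold changes of -0.51 and -0.27. Thbs4, a thrombospondin of tendon matrix related to Comp, read 2804 and 2781 on the arrays of control, 5.45 and 5.59 on those of no.1 and 3.60 and 42.4 on those of no.2. Its log2 fold change on the measured readings was -10.4 in no.1 (SE 1.03, limma adjusted p = 0.00221). Neither no.1 array was called above background there, although both readings passed the lowest signal so called, so no bound is given. In no.2 the log2 fold change was -8.54 (SE 1.03, limma adjusted p = 0.00591), where 1 of 2 arrays was above background. Without no.2 replicate 1 that value was -6.79 (adjusted p = 0.00759), and -10.30 (adjusted p = 0.00655) if replicate 2 was left out. Tgfb2, a ligand that induces Scx in development, rose by 2.83 in no.1 and 2.30 in no.2 (SE 0.29, limma adjusted p = 0.00237 and 0.00652). Htra3, a secreted serine protease, fell by 3.75 in no.1 (SE 0.60, limma adjusted p = 0.00605), with -2.80 without no.1 replicate 1 and -4.70 if replicate 2 was left out.

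Cartilage matrix genes were tested for 7 of 20 entries, of which 2 rose and 2 fell in each group (medians -0.78 and -0.08). Prg4, the joint lubricant lubricin, was at least 40.6-fold lower in no.1 and at least 26.4-fold lower in no.2 (limma adjusted p = 0.000842 and 0.00138). Its measured log2 fold change in no.1, -7.02, was -6.31 without no.1 replicate 1 and -7.74 if replicate 2 was left out. Col11a1, a minor chain of the cartilage collagen fibril, rose by 3.58 in no.2 (SE 0.57, limma adjusted p = 0.0113), or by 4.50 without no.2 replicate 1 and 2.65 if replicate 2 was left out. It was called higher in no.1 too, where the call was lost without either no.1 array. Among 12 chondrogenic transcription factors, 5 rose and 2 fell in no.1 and 4 rose and 2 fell in no.2 (medians 0.28 and 0.51). They included Cbfb, the partner subunit of Runx factors (1.57 in no.1, SE 0.23, limma adjusted p = 0.00505), and the forkhead factor Foxc2 (3.94 in no.1, SE 0.65, limma adjusted p = 0.00648). Of 6 tested SoxE, SoxD and Runx partners, Cbfb alone was called in each group (medians 0.09 and 0.14). Its no.2 value of 1.09 (SE 0.23, limma adjusted p = 0.0222) no longer passed without control replicate 1 (1.13, adjusted p = 0.0994), control replicate 2 (1.06, adjusted p = 0.118) or no.2 replicate 2 (0.94, adjusted p = 0.0751).

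Of 11 osteoblast lineage genes, 3 rose and 3 fell in no.1 and 3 rose and 1 fell in no.2 (medians -0.19 and 1.14). Hedgehog and PTHrP signalling, 11 genes of the growth plate, had 3 and 3, and 2 and 2 (medians 0.14 and 0.28). In BMP and GDF signalling, 17 genes, 2 rose and 6 fell in no.1 and 1 rose and 5 fell in no.2 (medians -0.72 and -1.12). The BMP effector Smad5 rose by 1.37 in no.1 (SE 0.20, limma adjusted p = 0.00467), and the ligand gene Bmp6 was at least 7.84-fold lower in no.1 (limma adjusted p = 0.00286). Both were called the same way in no.2, where each call was lost without control replicate 2.

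Of 13 proteases and inhibitors that act on aggrecan and Comp, 3 rose and 6 fell in no.1 and 5 rose and 3 fell in no.2 (medians -1.02 and 0.04). The metalloproteinase inhibitors Timp3 and Timp1 fell in no.2 by 2.26 (SE 0.24, limma adjusted p = 0.00425) and 2.34 (SE 0.31, limma adjusted p = 0.00730). Timp3 was called lower in no.1 too. Chondroitin sulfate synthesis, 22 genes, had 7 up and 7 down in no.1 and 3 up and 5 down in no.2 (medians -0.36 and -0.30). Of 8 relatives of Comp and aggrecan, 0 rose and 5 fell in no.1 and 1 rose and 3 fell in no.2 (medians -1.19 and -0.98). No listed gene was called between no.1 and no.2. In the tendon list Htra3 stood at -1.70 there (SE 0.60, limma adjusted p = 0.282), and it was not called with any 1 array left out.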

How the data were processed

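Per the labels, total RNA of 6 samples was labelled with Cy3 and measured on 1-colour arrays. The deposited scanner files hold intensity values, made with Agilent Feature Extraction 12.1.1.1 per the file headers (9.5.1.1 per the submitters' processing notes), and name build mm9. The processed signal is background-subtracted by the authors' scanner software and not normalized between arrays. The deposited value table also holds intensity values, on a linear scale with a median of 5.16. At least 99.9% of them came within 1% of a quantile normalization of the processed signals, which settles its scale. 0 of its columns had no sample. Flags in the files (other) say whether a spot was well above background.

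Spots of a probe were averaged, outlier spots left out where others remained, and log2 values scaled to the 75th percentile of 56605 probes. Of these, 32994 (58.3%) matched a RefSeq symbol (GRCm38.p6, used for names), and 0 spots were saturated. A gene is its probe of highest mean. Tests used limma 3.58.1 in R 4.3.3 (package data.table, version 1.17.8), by a mean per group over 6 arrays, and every adjusted p is limma's. The fit was tested on simulated data. A permutation test of 2 against 2 arrays cannot go below an exact two-sided p of 0.333. The number of arrays limits the precision.

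The members and lists were chosen with earlier results of these data known. All members are named. By rule, listed genes are those of lowest p in each list and direction whose brighter group was above background, and values are given for those whose call held in every alternative (Cbfb in no.2 aside), a limit set after seeing the values. A gene given with values in 1 group may thus have been called in the other as well. Between no.1 and no.2 a low-p gene of the tendon list is given. 1 item that these rules take is not reported here. Alternatives changed background correction, scaling, filter, probe choice, fit and arrays. The files lack the mean signal, so normexp used the median signal with an offset of 50, chosen after seeing the data.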

Additional observations from a re-analysis of the deposited data

How the results depend on the processing

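Under 18 alternatives, the calls of Cilp against control in both groups and of Tnmd in no.1 were kept, and Scx, Sox9, Tnmd, Comp and Cilp kept their direction against control. In no.1, calls were lost in 5 settings for Sox9, 4 for Comp and 7 for Mkx, plus 1 in which Mkx reversed (normexp). In no.2 they were lost in 4 for Scx, 5 for Mkx, 6 for Runx2, 10 for Sox9, 9 for Comp and 1 for Tnmd. Plod2 lost its call in 1 setting in no.1 (spike-ins, -0.20). With both control arrays averaged into 1 sample, 2 members (Tnmd and Cilp) were called in each comparison against control, 2 member probes in no.2, and 4846 and 1246 of all genes. Leaving out 1 array gave 2 to 6 members in no.1 (4 to 7 probes, 4999 to 12054 of all genes), 1 to 6 in no.2 (2 to 7 probes, 1298 to 6367 of all genes), and 0 between no.1 and no.2 (0 probes, 0 to 117 of all genes). Relative to the spike-ins, 19336 and 15516 of all genes were called. Without the filter on dim probes these were 24873 and 16476, with 8296 between no.1 and no.2, where 1 member (1 probe, beside 17.7% of all probes) passed, Acan, which was below background on every array. Normexp correction called 4 member probes there, beside 24.4% of all probes, and 0 members and 0 of 23060 genes at gene level. The cause was not tested.

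Reversals with normexp were Mkx (-0.19) and Runx2 (-0.13) in no.1, Plod2 between no.1 and no.2 (-0.12), Adamts20 (-0.45), Col10a1 (-0.37), Gli2 (-0.25) and Tnfsf11 (-0.46) in no.1, Col10a1 in no.2 (-0.16) and Pax9 between no.1 and no.2 (-0.048). With the mean over probes they were Runx2 in no.1 (-0.0051), and Cdon (0.029) and Sox5 (-0.069) between no.1 and no.2. With spike-ins they were, in no.1, B4galt7 (0.46), Bmpr1b (0.40), Col11a2 (0.34), Dlx6 (0.66), Hapln3 (0.34), Ihh (1.01), Msx1 (1.27), Nkx3-2 (0.30), Pax9 (0.87) and Timp2 (0.31). In no.2 they were B4galt7 (0.23), Col11a2 (0.12), Dlx6 (0.51), Ihh (0.55) and Tnc (0.023). Between no.1 and no.2 they were Sox9 (0.42), Runx2 (0.18), Col9a2 (0.028), Dlx6 (0.15), Matn2 (0.090) and Mepe (0.061). Leaving out 1 array moved values between no.1 and no.2 across 0, with ranges of -0.89 to 0.44 for Sox9 (0.18 without no.1 replicate 1), -2.12 to 0.55 for Comp (0.42 without no.1 replicate 2), -1.81 to 0.0097 for Mkx and -0.0039 to 0.32 for Sox5. Some reversed values in no.1 passed the threshold in the opposite direction. With normexp these were Adamts20 (limma adjusted p = 0.00655), Col10a1 (0.0134) and Tnfsf11 (0.00366). With spike-ins they were Ihh (limma adjusted p = 0.0107), Msx1 (0.00261) and Pax9 (0.0288).

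With the replicate number as a block, 6, 7 and 0 members and 10572, 6056 and 0 of all genes were called, and Scx passed in no.1 (adjusted p = 0.0379), the one member call that it changed. Same-numbered arrays correlated at -0.035, -0.017 and 0.165 (control with no.1, control with no.2, no.1 with no.2) in their deviations, so the numbers were not taken to pair all 6 arrays. The file names tie the number to hours in no.1 and no.2, where the correlation was over 0.1.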
